A study of Mus musculus with 10 samples.

Results

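Autophagy genes in the P14 mouse lung are described here by the 43 genes that build, load and regulate the autophagosome, chosen by gene name from the 54532 genes of the deposited table. All 43 were found, and all 43 passed the filter on low values that left 15388 genes for testing. The lungs came from wild-type mice (genotype WT) operated on at P7 and collected at P14. In the 5 mice of the increased pulmonary blood flow (IncPBF) group the abdominal aorta was punctured through into the inferior vena cava, which makes a fistula, while the 5 mice of the sham group had the laparotomy and exposure without the puncture. Each of the 10 lungs gave 1 library of bulk RNA-sequencing, and the labels state neither litter nor sex nor date of surgery.

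Autophagy encloses cytoplasm in a double membrane, the autophagosome, which then fuses with the lysosome for breakdown. The ULK1 kinase complex starts the process, the class III PI3-kinase complex and ATG9 vesicles build the membrane, and 2 linked conjugation systems attach LC3 and GABARAP proteins to it. Receptors such as SQSTM1 bind cargo and LC3 together, and the transcription factor TFEB switches on autophagy and lysosomal genes when nutrients are short. In the lung, autophagy is known for its part in alveolar epithelial maturation and in the response to injury.

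Values are given as FPKM, a fragment count divided by the length of the gene and by the size of the library, as scaled by the authors. The lungs held 16103423 to 20318525 fragments on genes. The member with the fewest fragments in any lung had 110 there, and the one with the most had 13024. A gene was called when the Benjamini-Hochberg adjusted p over all 15388 genes in limma was under 0.05, and log2 fold changes, IncPBF against sham, are on the log2(FPKM + 0.1) scale. The labels number the lungs without saying more of how they were sampled, so p-values measure only the spread between these lungs.

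Sex-linked genes split the lungs in a way that follows the groups except for 1 lung. The RNA of Xist, which silences an X chromosome in female cells, stood at 52.4 to 66.5 FPKM in IncPBF lungs 2 to 5, at 0.0144 in IncPBF lung 1, and at 0.0064 to 0.0770 in the 5 lungs of the sham group. Ddx3y, a Y-linked gene, stood at 18.6 FPKM in IncPBF lung 1 and at 21.9 to 24.6 in the sham lungs, but at 0 to 0.00926 in IncPBF lungs 2 to 5. Sex-linked expression and surgery therefore cannot be told apart in lungs 2 to 5, and IncPBF lung 1 is given separately below.

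CACGTG, the core of the sequence that TFEB and related factors bind, was found in the promoters of 6 members. The promoters are those of RefSeq on GRCm38.p6, each a short window around a start site, and 36 of the 43 members had an entry, with 43 promoters between them. The stretches that hold the motif are shown because they hold the core bound by TFEB, itself a member. Each is written 5′ to 3′ on the strand of the gene, with CACGTG in capitals.
Lamp1, chr8:13159091-13159160, plus strand: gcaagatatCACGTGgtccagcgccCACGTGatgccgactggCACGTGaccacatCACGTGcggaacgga
Bnip3, chr7:138909597-138909626, minus strand: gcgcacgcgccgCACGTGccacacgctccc
Atg14, chr14:47568418-47568447, minus strand: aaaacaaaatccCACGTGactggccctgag
Atg3, chr16:45158723-45158775, plus strand: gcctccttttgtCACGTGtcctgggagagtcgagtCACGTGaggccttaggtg
Atg7, chr6:114670952-114670981, plus strand: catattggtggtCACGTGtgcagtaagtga
Atg5, chr10:44268313-44268342, plus strand: cggagcgcttgcCACGTGgtcttggtgacg
Lamp1, a major protein of the lysosomal membrane, held 4 copies within 70 bases of its start, and Atg3 held 2 copies. For Atg7, Atg14, Atg3 and Bnip3 the RefSeq start lies inside the gene as the table bounds it. The printed windows of Atg7 and Atg14 lie inside these bounds too, so they belong to an internal start. Those of Atg3 and Bnip3 lie upstream of the bounds.

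Of all 32851 promoters of the same length, 7.15% held CACGTG, which reads the same on both strands. The longer TCACGTG, or CACGTGA on the other strand, was in the promoters of 4 members (Lamp1, Atg14, Atg3 and Atg7) and in 3.77% of all promoters; each of its matches contains CACGTG. The full palindromic CLEAR consensus of TFEB targets, and GTAAACA, the core that FOXO factors bind, searched on both strands, were in 0 of the 43 member promoters, against 0.326% and 3.65% of all promoters. Of the 6 genes with CACGTG, Bnip3, Atg14 and Lamp1 were lower in the IncPBF group, with log2 fold changes of -0.88, -0.63 and -0.24. Atg3, Atg7 and Atg5 had log2 fold changes of -0.04, 0.05 and 0.14 and were not called.

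Of the 43 autophagy genes, 21 were lower in the IncPBF group and 0 were higher, while 22 were not called. Among all 15388 genes 16.2% were called lower and 16.1% higher. Unadjusted limma p-values under 0.05 were reached by 26 members, of which Atg5 had a positive log2 fold change. In 16 of the 43, all of them among the 21, the 5 IncPBF lungs lay below all 5 sham lungs, against 11.2% of all genes. Among the 2490 genes of the whole table called lower, 67.1% had groups apart in this way. The median log2 fold change of the 43 was -0.19, beside 0.01 over all genes tested, and it was negative in 34 of 43, against 47.9% of all genes. The falls were modest. The IncPBF mean of the called members was 53.6% to 88.3% of the sham mean, with a median of 76.6%, and no member changed 2-fold. In bulk tissue, fewer cells of a type and less RNA per cell cannot be told apart.

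**Figure D1:**
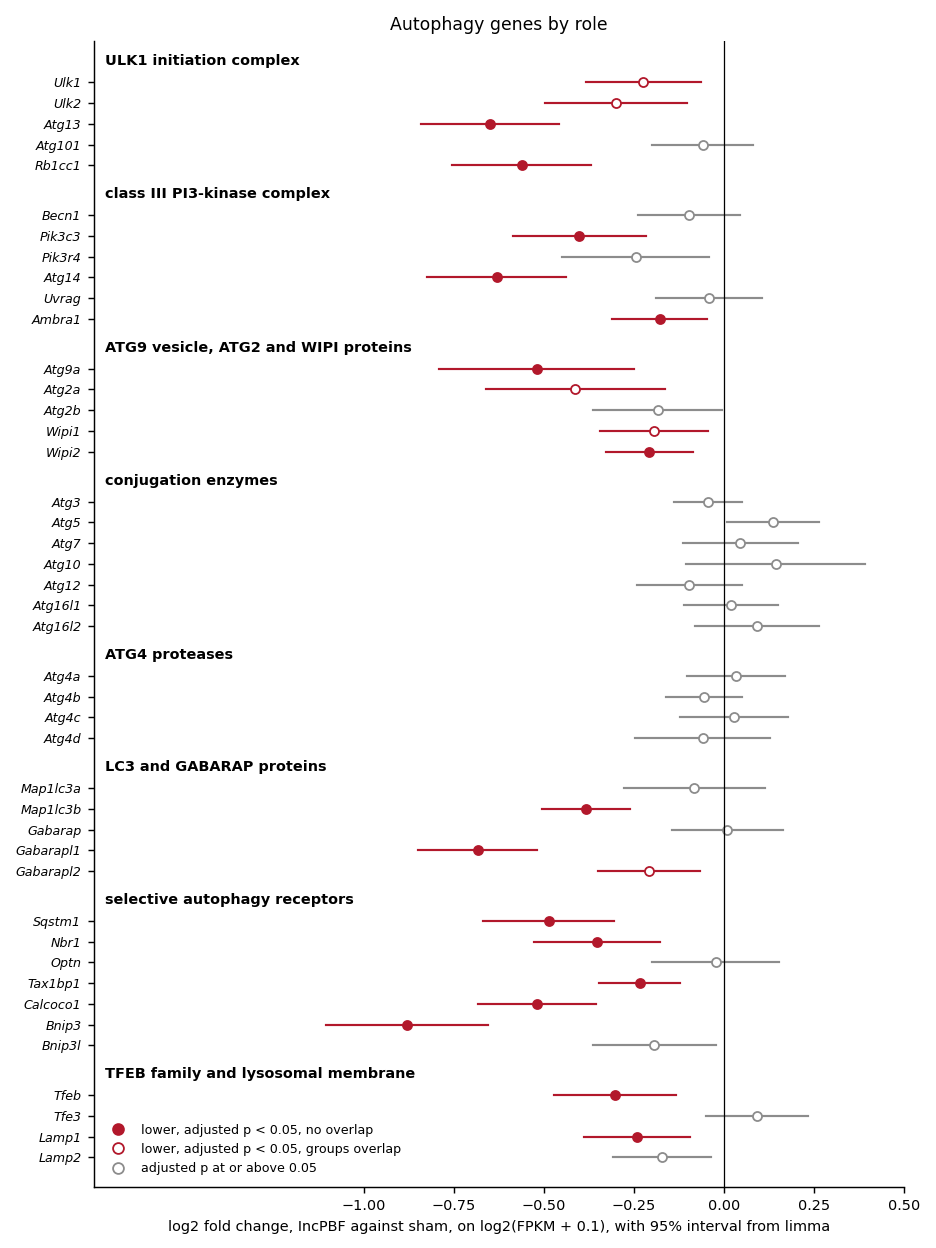
Log2 fold change of the 43 autophagy genes, IncPBF against sham on log2(FPKM + 0.1), with the 95% interval from limma (n = 5 lungs per group). Rows are grouped by role, red marks the 21 genes lower at an adjusted p under 0.05, and filled circles mark the 16 whose groups did not overlap. The 11 conjugation enzymes and ATG4 proteases stand around 0, while called genes appear in each of the other 6 roles.

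The scaling of the lungs touched this count. The library size behind the FPKM was 1.02 to 1.07 times the fragments on genes in IncPBF lungs and 0.958 to 1.03 times in sham lungs. With an equal total per lung, 16 members were lower and 1 was higher, Atg5 at a log2 fold change of 0.21 (limma, adjusted p = 0.0265). The log2 fold change was then negative in 28 members, with a median of -0.11 over the members, beside 0.09 over all genes. Over all genes that scaling gave 3559 higher and 1782 lower calls, against 2480 and 2490 as deposited. limma-voom on the recovered fragments gave 16 lower and 2 higher members, Atg5 and Tfe3, and 1870 lower and 3644 higher genes in all. It too gave 28 members with a negative log2 fold change and a median of -0.11 over the members. The calls of Ulk1, Ambra1, Wipi1, Wipi2 and Gabarapl2 were lost under both. Xist was high in the other IncPBF lungs but not in IncPBF lung 1 or the sham lungs. In a fit with Xist as a covariate, the group term therefore rests mainly on IncPBF lung 1 against the sham lungs. With log2 Xist as a covariate the fit called 3 members, Rb1cc1, Gabarapl1 and Bnip3, and gave 35 negative values, with a median log2 fold change of -0.16. Over all genes this fit left 413 lower and 328 higher calls.

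IncPBF lung 1, whose sex-linked genes read like those of the sham lungs, lay below all 5 sham lungs in 20 of the 21 called members, calls that this lung had a part in. Of all 2490 genes called lower it did so in 91.9%. A fit without this lung called 17 members lower and 1 higher, Atg10 at a log2 fold change of 0.25 (limma, adjusted p = 0.0421). In all 17 of those lower members IncPBF lung 1 lay below every sham lung. IncPBF lung 1 had no part in that fit, but the 5 sham lungs did. All 17 are among the 21 called members above, so this count is not separate support. Of the 2136 genes of the whole table called lower without IncPBF lung 1, 88.7% likewise had it below every sham lung. Within the IncPBF group, lung 1 fell inside the range of lungs 2 to 5 in 14 of the 21 called members, above it in 3 and below it in 4.

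The ULK1 initiation complex had 4 of its 5 genes lower. Atg13, the adaptor that binds ULK1 to its partners (chr2:91674618-91710576, minus strand), read 11.9, 11.1, 11.8, 10.03 and 12.7 FPKM in IncPBF lungs 1 to 5. The sham lungs read 19.4, 20.01, 17.5, 15.0 and 18.9 FPKM. The groups did not overlap, and the log2 fold change was -0.65 ± 0.09 (SE, limma, adjusted p = 0.000315). Rb1cc1, which encodes the scaffold FIP200, read 3.76, 5.18, 4.53, 4.86 and 4.96 FPKM in the IncPBF lungs, and 7.70, 6.97, 6.46, 6.59 and 6.79 in the sham lungs. Its lowest value was that of IncPBF lung 1, the groups were apart, and the log2 fold change was -0.56 ± 0.09 (SE, limma, adjusted p = 0.000815).

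The kinase genes themselves moved less. Ulk2 fell by 0.30 on the log2 scale (limma, adjusted p = 0.0250) and Ulk1 fell by 0.22 (adjusted p = 0.0354), and in both the highest IncPBF lung overlapped the lowest sham lung. Ulk2 lost the call when any of 4 lungs was left out (adjusted p up to 0.0598 in limma) and Ulk1 when any of 7 was (up to 0.0822). Atg101, which stabilises ATG13, had means of 15.1 ± 0.72 and 15.8 ± 1.35 FPKM (SD, n = 5 each, IncPBF then sham), a difference within the spread. An antisense transcript, 4732440D04Rik, shares 558 exon bases with Rb1cc1 at 1.06 and 1.31 FPKM on average, and strand was not stated for the counting.

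In the class III PI3-kinase complex, which makes the lipid mark of the growing membrane, 3 of 6 genes were lower. Atg14, the subunit that directs the complex to autophagy, read 3.96, 3.42, 3.71, 2.86 and 3.79 FPKM in IncPBF lungs and 5.32, 5.76, 5.88, 5.07 and 5.59 in sham lungs. The highest IncPBF lung was over 1 FPKM below the lowest sham lung, and the log2 fold change was -0.63 ± 0.09 (SE, limma, adjusted p = 0.000420). Pik3c3, the catalytic subunit VPS34, read 7.11, 7.38, 7.45, 5.93 and 7.52 FPKM in IncPBF lungs and 10.5, 9.73, 8.76, 8.22 and 9.70 in sham lungs. Lung 4 stood under the other 4 IncPBF lungs, and the log2 fold change was -0.40 ± 0.08 (SE, limma, adjusted p = 0.00442).

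Ambra1, a regulator that binds the Beclin 1 protein, fell by 0.18 on the log2 scale (limma, adjusted p = 0.0392) with no overlap, and lost the call when any of 7 lungs was left out (adjusted p up to 0.0957). The other 3 genes of the complex were not called. Becn1, which encodes Beclin 1, was at 10.5 ± 0.78 against 11.2 ± 0.70 FPKM, and Uvrag, the subunit that replaces ATG14 in the endosomal form, at 7.19 ± 0.53 against 7.41 ± 0.48 (SD, n = 5 each). On the other strand, Becn1 shares 3104 exon bases with Cntd1 and Uvrag shares 1589 with Gm45187, so both levels are uncertain. Pik3r4, the regulatory subunit VPS15, had a log2 fold change of -0.25 at an adjusted p of 0.0634 in limma, and was called without sham lung 3 (adjusted p = 0.0463) or without sham lung 4 (adjusted p = 0.0167).

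ATG9 vesicles, ATG2 lipid transporters and WIPI proteins supply membrane to the growing autophagosome, and 4 of these 5 genes were lower. Atg9a, the membrane protein of the vesicles, read 3.80, 3.76, 4.13, 3.32 and 4.36 FPKM in IncPBF lungs and 6.58, 5.72, 4.60, 4.59 and 6.80 in sham lungs. The groups did not overlap although sham lungs 3 and 4 came close, and the log2 fold change was -0.52 ± 0.12 (SE, limma, adjusted p = 0.00839). Atg9a shares 46 exon bases with Ankzf1 on the other strand, which was also lower (log2 fold change -0.27, limma, adjusted p = 0.0145). With Gm29253 on the same strand, which was at 0 FPKM in both groups, Atg9a shares 1832 exon bases, so its level is uncertain.

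Atg2a read 4.98, 4.17, 5.38, 4.51 and 4.58 FPKM in IncPBF lungs and 6.90, 5.97, 5.75, 5.22 and 8.03 in sham lungs. IncPBF lung 3 overlapped sham lung 4, and the log2 fold change was -0.41 ± 0.11 (SE, limma, adjusted p = 0.0170). By exact permutation the adjusted p of Atg2a was 0.0538, and Ulk1, Ulk2, Wipi1 and Gabarapl2 lost the call too, at up to 0.0868. Atg2b, the paralog of Atg2a, was not called, at 3.23 ± 0.16 against 3.69 ± 0.42 FPKM (SD, n = 5 each). Atg2b shares 383 exon bases with Gskip on the other strand, so its level is uncertain. Gskip averaged 5.59 FPKM in the IncPBF group and 4.94 in sham. Wipi2, which recruits the conjugation machinery, fell by 0.21 without overlap (limma, adjusted p = 0.0142). Wipi1 fell by 0.19 with overlap, and its adjusted p of 0.0496 was the closest to the threshold among the called members. It was over the threshold when any of 8 lungs was left out, reaching 0.112.

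**Figure D2:**
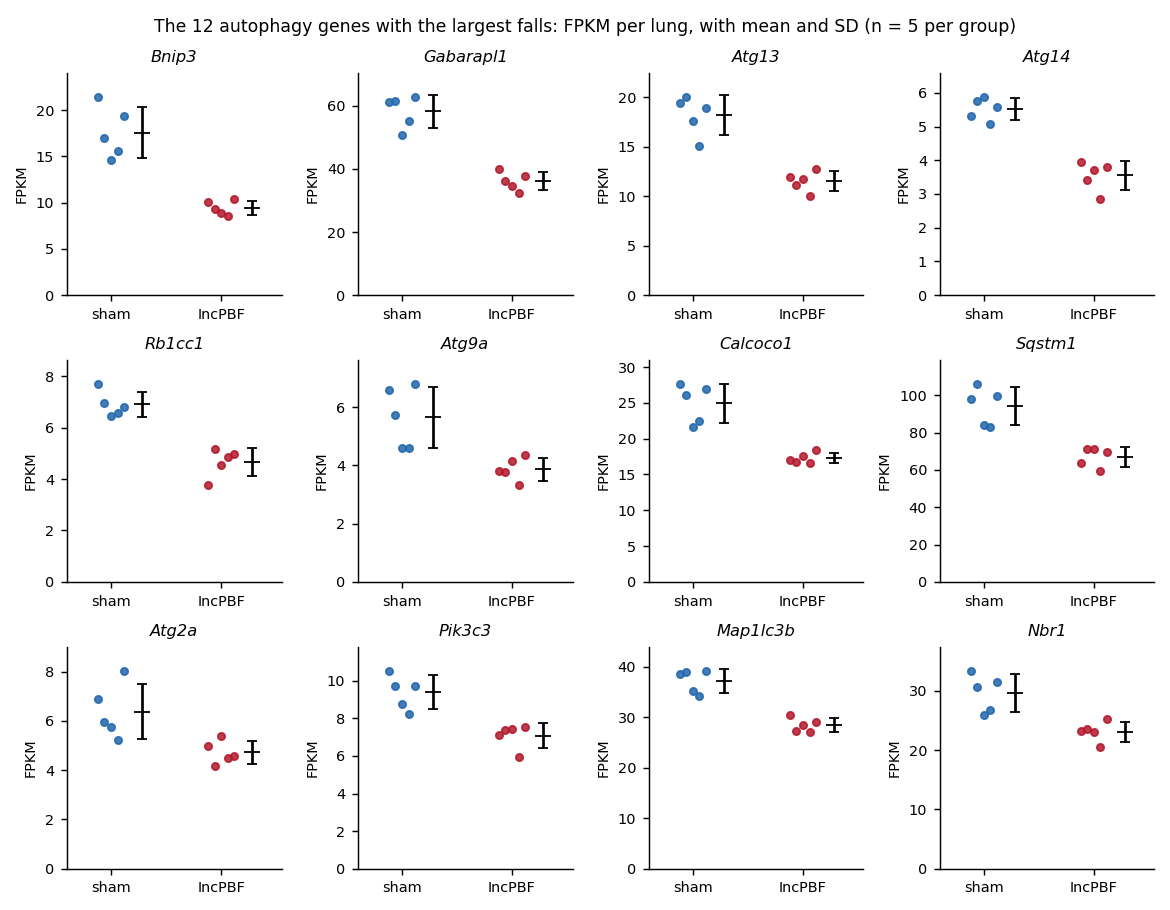
FPKM per lung of the 12 called autophagy genes with the largest falls, with each axis starting at 0, points for the 5 sham (blue) and 5 IncPBF (red) lungs in the order of their numbers, and mean and SD at the side. In 11 of the 12 panels, picked for their large falls, every IncPBF lung lies below every sham lung, the exception being Atg2a. Of all 2490 genes called lower, 67.1% had groups apart in this way.

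The conjugation enzymes and ATG4 proteases gave no call in either direction. The first are the E1-like, E2-like and E3-like factors that attach LC3 to lipid, and the ATG4 proteases cut LC3 before and after that step. Of these 11 genes 4 had a negative log2 fold change, the median was 0.03, and the widest bounds of their 95% intervals were -0.25 and 0.39. In the 32 other members, 21 were lower; no test set these counts against each other. At an unadjusted limma p under 0.05 stood 1 of the 11, Atg5, and limma-voom called the same 1.

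Atg5, one partner of the ATG12 conjugate, had the smallest adjusted p of the 11 in limma (0.0985), at 15.3 ± 0.64 FPKM in the IncPBF group against 13.96 ± 0.98 in the sham group (SD, n = 5 each). Atg7, the E1-like enzyme, was at 6.37 ± 0.26 against 6.19 ± 0.62 FPKM, and Atg3, the E2-like enzyme for LC3, at 13.9 ± 0.29 against 14.3 ± 0.50. Atg16l1, which places the conjugate at the membrane, was at 4.42 ± 0.09 against 4.37 ± 0.31 FPKM. Atg10, the least sampled member, was at 4.51 ± 0.78 against 4.03 ± 0.24 FPKM, and its lowest lung was IncPBF lung 1 at 3.31. The remaining 2 of this role, Atg12 and Atg16l2, had log2 fold changes of -0.10 and 0.09. Atg4b, the main LC3 protease, was at 7.23 ± 0.28 against 7.52 ± 0.22 FPKM, and Atg4a, Atg4c and Atg4d had log2 fold changes of 0.03, 0.03 and -0.06. Atg4d shares 1405 exon bases with Kri1 on the other strand, so its level is uncertain. The table's length for Atg12 is 2492 bases, and the union of its exons in GENCODE M21 is 7711; for the other 42 members both were equal.

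The LC3 and GABARAP genes, whose proteins coat the autophagosome and bind receptors, did not move alike. Gabarapl1 (chr6:129533160-129542346, plus strand) read 40.1, 36.2, 34.7, 32.4 and 37.8 FPKM in IncPBF lungs 1 to 5. In sham lungs 1 to 5 it read 61.3, 61.6, 50.8, 55.2 and 62.9 FPKM. The highest IncPBF lung was lung 1 and stayed over 10 FPKM under the lowest sham lung. The log2 fold change of -0.69 ± 0.08 had the smallest adjusted p of the 43 genes (SE, limma, 9.56e-05).

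Map1lc3b, which encodes the LC3 form most used as a marker of autophagosomes, read 30.4, 27.4, 28.5, 27.1 and 29.2 FPKM in IncPBF lungs and 38.6, 39.0, 35.1, 34.3 and 39.2 in sham lungs. The groups were apart, with a log2 fold change of -0.38 ± 0.06 (SE, limma, adjusted p = 0.000543). Zcchc14, which shares 58 exon bases with it on the other strand, fell by 0.25 (limma, adjusted p = 0.0155). Gabarapl2 read 24.1, 24.7, 22.4, 23.3 and 24.9 FPKM against 30.6, 27.99, 24.1, 28.8 and 26.8. Sham lung 3 lay inside the IncPBF range, and the log2 fold change was -0.21 ± 0.06 (SE, limma, adjusted p = 0.0296). The call was lost when any of 6 lungs was left out, with an adjusted p of up to 0.0681.

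The most abundant of the family showed no call. Gabarap read 93.2, 100.8, 97.3, 97.8 and 110.1 FPKM in IncPBF lungs and 91.1, 110.6, 91.5, 106.0 and 97.4 in sham lungs, with a 95% interval of the log2 fold change from -0.14 to 0.16. Map1lc3a read 69.7, 68.4, 75.9, 71.7 and 73.7 FPKM against 64.0, 89.9, 81.6, 67.2 and 81.0. The IncPBF lungs of Map1lc3a all lay inside the range of the sham lungs. Summed over the 5 genes, the family stood at 260.3 ± 8.88 FPKM in the IncPBF group, against 299.3 ± 19.1 in sham (SD, n = 5 each). Of that sum Gabarapl1 took 13.9% ± 1.02 in the IncPBF group, against 19.5% ± 1.43 in sham, while the share of Gabarap was 38.3% ± 1.47 and 33.2% ± 1.94 (SD, n = 5 each).

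**Figure D3:**
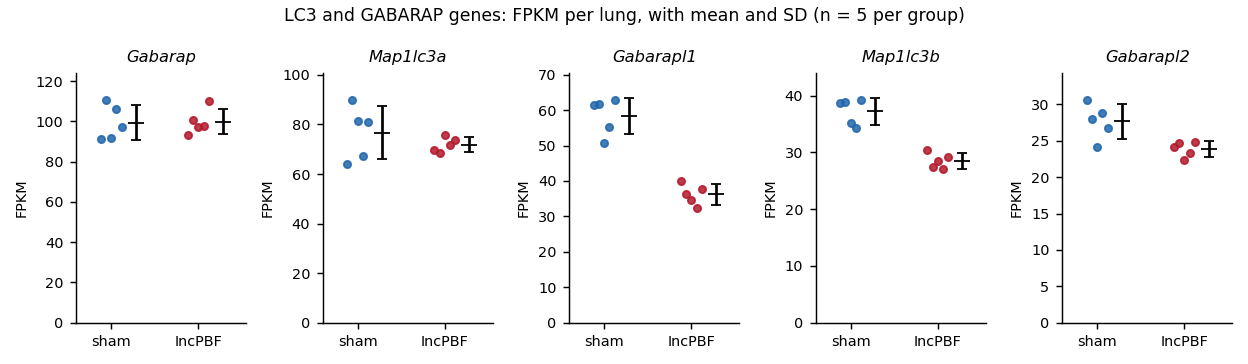
FPKM per lung of the 5 LC3 and GABARAP genes, with axes from 0, sham lungs in blue, IncPBF lungs in red, and mean and SD (n = 5 per group) beside the points. Gabarapl1 and Map1lc3b show separate groups, Gabarapl2 overlaps at sham lung 3, and Gabarap and Map1lc3a overlap throughout.

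Among the selective autophagy receptors, 5 of 7 genes were lower. Bnip3, a receptor on the outer mitochondrial membrane that is also known as a gene induced by hypoxia (chr7:138890836-138909519, minus strand), had the largest log2 fold change of the 43. It read 10.03, 9.28, 8.84, 8.57 and 10.4 FPKM in IncPBF lungs 1 to 5 and 21.4, 16.9, 14.7, 15.6 and 19.3 in sham lungs 1 to 5. The IncPBF mean was 53.6% of the sham mean, and the log2 fold change was -0.88 ± 0.10 (SE, limma, adjusted p = 0.000125). Its promoter is one of those with CACGTG printed above.

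Calcoco1, a receptor linked to breakdown of the endoplasmic reticulum, read 17.1, 16.7, 17.6, 16.7 and 18.4 FPKM in IncPBF lungs and 27.7, 26.1, 21.6, 22.5 and 26.9 in sham lungs. The IncPBF lungs were close together and all below the sham lungs, with a log2 fold change of -0.52 ± 0.07 (SE, limma, adjusted p = 0.000483). Sqstm1, which encodes p62, the receptor for ubiquitin-tagged cargo, read 63.5, 71.1, 71.2, 59.4 and 69.7 FPKM against 97.9, 106.1, 84.2, 83.1 and 99.8. Its groups were likewise apart, with a log2 fold change of -0.49 ± 0.08 (SE, limma, adjusted p = 0.00131).

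Nbr1, a partner of p62, read 23.2, 23.6, 23.0, 20.6 and 25.2 FPKM in IncPBF lungs and 33.4, 30.7, 25.9, 26.7 and 31.4 in sham lungs. IncPBF lung 5 came within 1 FPKM of sham lung 3 without overlap, and the log2 fold change was -0.35 ± 0.08 (SE, limma, adjusted p = 0.00662). Tax1bp1, another ubiquitin-binding receptor, fell by 0.24 without overlap (limma, adjusted p = 0.00527). Optn, the receptor optineurin, was at 5.35 ± 0.42 against 5.45 ± 0.53 FPKM (SD, n = 5 each) and was not called. Bnip3l, the receptor NIX that clears mitochondria from maturing red cells, read 52.0, 49.1, 44.0, 41.8 and 55.5 FPKM in IncPBF lungs and 57.04, 55.3, 51.1, 57.6 and 55.0 in sham lungs. Its groups overlapped and its log2 fold change of -0.19 had an adjusted p of 0.0781 in limma, or 0.0288 without IncPBF lung 5. A processed copy, Bnip3l-ps, was at 7.45 and 8.80 FPKM, and fragments could be split between the copies.

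The TFEB family and lysosomal membrane genes included the most abundant member. Lamp1 (chr8:13159161-13175338, plus strand) read 217.1, 209.1, 203.2, 184.6 and 222.5 FPKM in IncPBF lungs and 244.7, 258.4, 224.9, 238.3 and 258.2 in sham lungs. IncPBF lung 5 and sham lung 3 were nearly level, the groups did not overlap, and the log2 fold change was -0.24 ± 0.07 (SE, limma, adjusted p = 0.0185). With no filter on low values its adjusted p was 0.0578, and Ulk1, Ambra1, Wipi1 and Gabarapl2 lost the call too. Lamp1 shares exon bases with Grtp1 on the other strand, a gene at 1.38 and 2.29 FPKM on average that was lower too (limma, adjusted p = 0.00202). Tfeb was at 3.87 ± 0.37 FPKM in the IncPBF group, against 4.78 ± 0.26 in sham (SD, n = 5 each). It fell by 0.30 on the log2 scale (limma, adjusted p = 0.0119), and the groups were apart.

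None of the 3 X-linked members was called. Tfe3, the close relative of TFEB, read 5.03, 4.96, 5.28, 5.08 and 5.16 FPKM in IncPBF lungs and 4.199, 4.93, 4.64, 4.92 and 5.27 in sham lungs. Lamp2, the second major LAMP protein, read 41.5, 40.6, 35.9, 36.8 and 44.0 FPKM against 46.0, 46.5, 42.4, 45.3 and 43.4. Its log2 fold change was -0.17 (limma, adjusted p = 0.0544), with 1 IncPBF lung, lung 5, inside the sham range; it was called without IncPBF lung 5 (adjusted p = 0.0250) or without sham lung 3 (adjusted p = 0.0473). Atg4a read 9.18, 7.88, 8.24, 8.69 and 8.74 FPKM against 7.60, 8.397, 8.25, 9.18 and 8.33. IncPBF lung 1 lay inside the range of IncPBF lungs 2 to 5 in Tfe3 and Lamp2 and above it in Atg4a. All 21 called members lie on autosomes.

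Ratios of related genes within a lung do not depend on how the lungs were scaled, apart from the 0.1 FPKM added to each gene before testing. For 12 pairs such ratios were compared by a two-sided exact permutation test over every split of the 10 lungs into 5 and 5. The smallest p of this test is 0.00794. The ratio was lower in the IncPBF group for 4 pairs, each without overlap and each at that smallest p, or 0.0238 adjusted over the 12. The same 4 were called lower with nothing added. The pairs were chosen with earlier results of these data known. The first gene of each of the 4 is itself a called member, so these ratios are not separate support for its fall. Gabarapl1 stood at 0.331 to 0.430 times Gabarap in IncPBF lungs and 0.520 to 0.673 times in sham lungs. Against Gabarapl2, Gabarapl1 was 1.39 to 1.66 times as high in IncPBF lungs and 1.92 to 2.35 times in sham lungs.

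Bnip3 was 0.188 to 0.205 times Bnip3l in IncPBF lungs and 0.270 to 0.376 times in sham lungs. These 5 IncPBF ratios were tightly spaced, lung 1 included at 0.193. Tfeb was 0.657 to 0.823 times Tfe3 in IncPBF lungs and 0.940 to 1.11 times in sham lungs. Tfe3 is X-linked and Tfeb is not, and IncPBF lung 1 read 0.761 there. The differences of the log2 ratios were -0.69 ± 0.10, -0.48 ± 0.07, -0.69 ± 0.09 and -0.39 ± 0.07 in that order (SE, n = 5 each).

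The other 8 ratios were not called. Map1lc3a to Map1lc3b was 2.52 ± 0.15 in the IncPBF group, against 2.06 ± 0.28 in sham (SD, n = 5 each), with an exact permutation p of 0.0238, or 0.0571 adjusted over the 12. It was called higher without sham lung 2 or without sham lung 3, at an adjusted p of 0.0381 in both. Without sham lung 4 the ratio of Atg4a to Atg4b was called higher, and without IncPBF lung 3 the ratios Atg2a to Atg2b and Lamp1 to Lamp2 were called lower (exact permutation, adjusted p = 0.0191, 0.0191 and 0.0476). The ratio of Ulk1 to Ulk2 was 0.631 ± 0.07 and 0.597 ± 0.04, and that of Wipi1 to Wipi2 was 1.70 ± 0.16 and 1.68 ± 0.13 (SD, n = 5 each, IncPBF then sham).

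**Figure D4:**
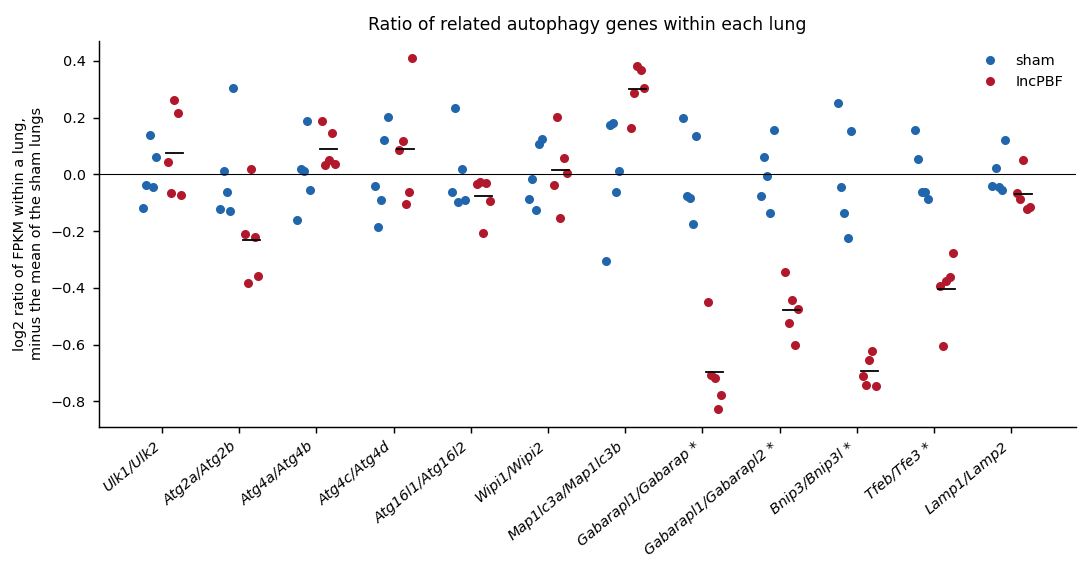
Log2 ratio of FPKM of 12 pairs of related autophagy genes within each lung, minus the mean of the sham lungs, with sham lungs in blue, IncPBF lungs in red and a line at the IncPBF mean. Asterisks mark the 4 ratios with an adjusted p under 0.05, in which all 5 IncPBF lungs lie below all 5 sham lungs.

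Levels spread widely between members. Mean sham FPKM ran from 1.78 for Atg16l2 to 244.9 for Lamp1, with a median of 11.2 against 5.55 over all genes tested. The SD was a median of 7.18% of the mean in the IncPBF group, against 7.91% in sham. Sham lungs 3 and 4 were the ones nearest to the IncPBF group: in 11 of the 21 called members sham lung 3 was the lowest sham lung, and in the other 10 it was sham lung 4. On the IncPBF side, lung 5 was the highest in 11 of the 21, while lung 4 was the highest in 0 and the lowest IncPBF lung in 21 of all 43 members. The deposited scaling ran in the same order for sham lungs 3 and 4 and for IncPBF lungs 4 and 5. The library size behind the FPKM was 1.03 and 1.02 times the fragments on genes in sham lungs 3 and 4. It was 0.958 to 0.983 times in the other sham lungs, 1.02 times in IncPBF lung 5 and 1.07 times in IncPBF lung 4. IncPBF lungs 1, 2 and 3 did not keep this order. They stood at 1.057, 1.047 and 1.046 times, and were the highest IncPBF lung in 3, 2 and 5 of the 21. The part of the scaling in this order was not tested.

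The rest of the pathway was taken from 5 lists with 106 genes, of which 104 passed the filter and were tested. Of the 104, 30 were lower and 9 were higher, with a median log2 fold change of -0.11. Among all genes tested, 16.2% were lower and 16.1% higher. Autophagosome-lysosome fusion had 7 lower and 1 higher of 14 genes. Epg5, a tether, fell from 4.79 ± 0.55 to 3.68 ± 0.19 FPKM, and Plekhm1, an adaptor of the late endosome, from 12.4 ± 0.97 to 9.59 ± 0.41 (SD, n = 5 each), with log2 fold changes of -0.37 and -0.36. The SNARE gene Ykt6 was the 1 that rose, by 0.15, a call lost when any of 8 lungs was left out (limma, adjusted p up to 0.0943).

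Of 16 other core and regulatory autophagy genes, 7 were lower and 1 was higher, beside 16.2% and 16.1% of all genes. Foxo3, a transcription factor known to switch on autophagy genes, fell from 36.1 ± 6.55 FPKM in the sham group to 15.5 ± 3.16 in the IncPBF group (SD, n = 5 each), a log2 fold change of -1.22 ± 0.14 (SE, limma, adjusted p = 0.000146). Its 5 IncPBF lungs ran from 13.5 to 21.1 FPKM and its sham lungs from 28.5 to 45.0. Trp53inp1, a p53-induced gene whose protein binds LC3, fell from 35.4 ± 7.95 to 18.8 ± 2.30 FPKM. Wdr45b, a relative of the WIPI genes, rose by 0.19.

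mTORC1, AMPK and nutrient sensing genes had 8 lower and 4 higher of 31, beside 16.2% and 16.1% of all genes. Deptor, an inhibitor of mTOR, fell from 8.38 ± 1.08 FPKM in the sham group to 3.67 ± 0.57 in the IncPBF group (SD, n = 5 each), a log2 fold change of -1.17 ± 0.11 (SE, limma, adjusted p = 4.71e-05). Sesn1, a p53 and FOXO target that restrains mTORC1, fell from 26.2 ± 2.66 to 13.6 ± 1.44 FPKM. Lamtor4, of the lysosomal Ragulator complex, and Mlst8, a subunit of mTORC1, rose by 0.38 and 0.26.

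Other selective autophagy genes had 4 lower and 2 higher of 12 tested, beside 16.2% and 16.1% of all genes. Retreg1, a receptor for endoplasmic reticulum, fell from 22.3 ± 2.75 to 15.2 ± 1.27 FPKM and Wdfy3, a scaffold for protein aggregates, from 14.1 ± 2.36 to 10.5 ± 0.39 (SD, n = 5 each). Stbd1, a glycogen-binding receptor, rose from 36.8 ± 2.17 to 49.1 ± 5.78 FPKM without overlap, and Phb2, a mitochondrial receptor, rose by 0.20, a call lost without IncPBF lung 4 (limma, adjusted p = 0.0541).

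Lysosomal enzymes, membrane and proton pump genes gave 4 lower and 1 higher of 31, or 12.9% lower, which is near the 16.2% of all genes. Of all genes 16.1% were higher. Their median log2 fold change was -0.12, and 26 of 31 were negative. Scarb2, the receptor that carries glucocerebrosidase to the lysosome, fell from 68.4 ± 7.22 to 44.1 ± 6.32 FPKM (SD, n = 5 each). Tpp1, a lysosomal peptidase, fell by 0.22, a call lost with an equal total per lung (limma, adjusted p = 0.0567) and with limma-voom (adjusted p = 0.0612). Cd63, a tetraspanin of lysosomes and exosomes, rose by 0.34, with an adjusted p of 0.0538 by exact permutation.

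**Figure D5:**
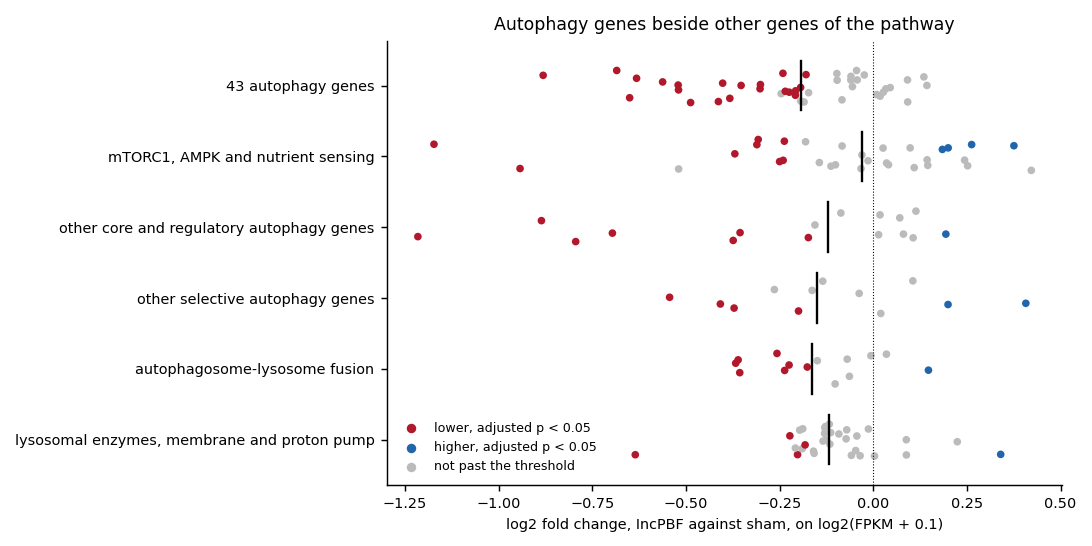
Log2 fold change, IncPBF against sham, of each tested gene in the 43 autophagy genes and in 5 further lists of the pathway, with a black line at each list's median and vertical scatter for legibility. Red marks genes lower and blue genes higher at an adjusted p under 0.05; the medians run from -0.19 for the 43 genes to -0.03 for mTORC1, AMPK and nutrient sensing.

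Markers of several lung cell types moved with the groups. All 7 AT1 (alveolar type 1) markers were lower, and their summed FPKM was 973 to 1050 in IncPBF lungs and 1239 to 1638 in sham lungs. Of the AT2 (alveolar type 2) markers 5 of 7 were lower, with sums of 11135 to 13771 and 13608 to 16822. Sftpc made up most of these sums and was not called (limma, adjusted p = 0.358); without it they were 1384 to 1899 and 2288 to 2749. Endothelial markers had 4 lower and 1 higher of 7 (sums 1047 to 1139 and 1110 to 1402), and mesenchymal markers 1 lower and 3 higher of 7 (sums 1010 to 1343 and 851 to 1039).

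Erythroid markers, which bear on Bnip3l as a gene of maturing red cells, were lower in 4 of 6, with sums of 251.6 to 1929 FPKM in IncPBF and 1461 to 2445 in sham lungs. Macrophage sums were 61.7 to 377 and 81.2 to 339, lymphocyte sums 26.3 to 31.1 and 27.3 to 36.7, and ciliated cell sums 112 to 150 and 88.4 to 144, with 0 of 7 called in each by limma. Cardiac muscle sums were 33.6 to 100.5 and 8.71 to 47.3, with 0 of 6 tested called. At an unadjusted p under 0.05, these 4 lists held 1, 1, 0 and 1 genes. No marker of any list was at 0 in all lungs. The part of these cell types in the values of the autophagy genes was not tested.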

How the data were processed

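Lungs of 5 IncPBF and 5 sham mice were profiled by bulk RNA-sequencing (NEBNext libraries, Illumina NovaSeq). The authors deposited FPKM per gene and lung, with the gene length that enters it; the sequencing methods name in-house scripts, and the submitters' processing notes list Bowtie 0.12.2 and the builds hg38, GRCm38 and mm10 without their roles. The counter, the use of strand and the annotation are not given in the sources used here. Coordinates were identical to GENCODE M21 on GRCm38 for 98.3% of shared genes. Columns of IncPBF lungs use an abbreviation unlike that in the titles, and were matched by exclusion, since the remaining 5 are named sham. FPKM times gene length, divided by the value of 1 fragment in that lung, came out whole, within 0.02 plus 1e-06 of the count, for 100% of the values above 0 in each lung.

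Genes whose FPKM averaged 0.5 or more were fitted on log2(FPKM + 0.1) with limma 3.58.1 (eBayes with a trend, R 4.3.3, no covariate), adjusted over all genes tested, and called under 0.05. The test was tried on simulated data with 200 changed genes. In the real data 4970 genes were called, so that trial does not check these calls. Ratios used exact permutation in Python 3.11.15 with pandas 2.3.3, and plots matplotlib 3.10.9. The members, lists, pairs and motifs were chosen with earlier results of these data known. Values per lung are given for the 12 called members with the largest log2 fold change, the X-linked members, the LC3 and GABARAP genes and the 5 most abundant; each further list names up to 2 rises and 2 falls. Genes that overlap a member, and Bnip3l-ps, lie outside this rule and were named after their values were seen. The values per lung of Bnip3l lie outside it too. Alternatives were the pseudocount, filter, scaling, trend, replicate block, Xist covariate, removal of X and Y genes, limma-voom, exact permutation and each lung left out. No genome sequence or protein table was used here.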

Additional observations from a re-analysis of the deposited data

Results flagged for a closer look

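Among the 86 groups of 5 lungs formed by the 43 members and the 24 formed by the ratios, 4 held a lung farther from the others than Dixon's 95% critical value of 0.71 for 5 samples; chance flags about 1 in 20 groups, and 2.33% of the member groups were flagged. Pik3c3 was at 5.93 FPKM in IncPBF lung 4, with the other 4 lungs at 7.11 to 7.52. Atg16l1 was at 4.90 FPKM in sham lung 2, with the others at 4.14 to 4.34. The ratio of Atg2a to Atg2b was 2.12 in sham lung 5, with the others at 1.57 to 1.73. The ratio of Gabarapl1 to Gabarap was 0.430 in IncPBF lung 1, with the other IncPBF lungs at 0.331 to 0.359; without this lung the ratio was still called lower.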

How the results depend on the processing

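Members called lower numbered 21 as reported, 3 with the Xist covariate (14 at an unadjusted p under 0.05) and 16 to 22 under the other alternatives; over all genes the Xist covariate left 413 lower calls of 2490; the other alternatives never moved the count by over 1.5 times. Members called higher numbered 0 as reported, 1 with an equal total, 2 with limma-voom, and 0 to 1 with a lung left out. Other pathway genes were lower in 30 as reported, 18 with an equal total, 18 with limma-voom, 5 with the Xist covariate and 21 to 34 with a lung left out; they were higher in 9 as reported, 14 with limma-voom, 1 with the Xist covariate, 4 by exact permutation and 5 to 10 with a lung left out, the lowest without IncPBF lung 4. Lower ratios numbered 4 to 6 and higher ratios 0 to 1 with a lung left out. As a replicate block the paired exact test of the ratios gave 0 calls, since 5 pairs cannot go below p = 0.0625. The block gave 22 lower members. Deviations of same-numbered lungs had correlations of -0.0675 to 0.0854, with the own number best in 2 of 5. These values cannot exclude a pairing, and the labels state neither litter nor date of surgery, so whether the numbers pair the lungs is not known. With the Xist covariate the group term rests mainly on IncPBF lung 1 against the sham lungs. The cause of these shifts was not tested.

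Wipi1, Ambra1, Ulk1, Gabarapl2 and Ulk2 lost the call when single lungs were left out, at adjusted p of up to 0.112, 0.0957, 0.0822, 0.0681 and 0.0598 (Wipi1 without IncPBF lungs 1, 3, 4 or 5 or sham lungs 1, 2, 4 or 5, Ambra1 without IncPBF 1, 2 or 4 or sham 1, 2, 3 or 5, Ulk1 without IncPBF 1, 2, 4 or 5 or sham 1, 2 or 5, Gabarapl2 without IncPBF 1, 3 or 4 or sham 1, 2 or 4, and Ulk2 without IncPBF 3 or 4 or sham 1 or 5); their negative direction held in all alternatives run. The sign turned only in members not called. With an equal total, log2 fold changes became 0.0194 for Atg101, 0.0359 for Uvrag, 0.0346 for Atg3, 0.0230 for Atg4b, 0.0179 for Atg4d and 0.0543 for Optn, and with limma-voom 0.0144, 0.0371, 0.0344, 0.0238, 0.0119 and 0.0583. With the Xist covariate they became 0.110 for Uvrag, -0.263 for Atg10, -0.00718 for Atg16l1, 0.0130 for Atg4d and -0.0753 for Gabarap. With single lungs left out they ran from -0.0111 to 0.0816 for Atg7, from -0.000452 to 0.0591 for Atg16l1, from -0.0142 to 0.0558 for Atg4c, from -0.0268 to 0.0489 for Gabarap and from -0.0637 to 0.0188 for Optn.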
